A study of Mus musculus with 3 samples.

Results

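Insulin signalling was followed through 10 genes, from the cell-surface receptors Insr and Igf1r through the adaptors Irs1 and Irs2, the lipid kinase subunits Pik3ca and Pik3r1 and the kinases Akt1 and Akt2 to the growth regulators Tsc2 and Mtor. They were taken by gene symbol from a table of 39179 genes, each symbol matched a single row, and all 10 had enough counts to be tested. The RNA came from white fat of C57BL/6 mice aged 16 weeks that carried a Flag-FTO transgene and had been fasted overnight. It was recovered in 2 libraries with the anti-Flag M2 monoclonal antibody (Flag-IP 1 and Flag-IP 2) and in 1 library with nonspecific IgG (IgG-IP). FTO is an enzyme that takes methyl groups off adenosines in RNA. The Flag antibody recovers the tagged protein with the RNA attached to it, and IgG recovers RNA that sticks without the tag. All 3 libraries share strain, transgene, tissue, age and fast, so the antibody is the labelled difference. The labels name neither the promoter of the transgene nor any pooling of animals, and do not state that each library had its own animal. The p-values therefore rest only on the spread between the Flag-IP libraries, pooled over genes, and that spread may be technical.

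When insulin or insulin-like growth factor binds its receptor, the receptor's kinase phosphorylates insulin receptor substrate proteins. These dock phosphoinositide 3-kinase at the membrane, the lipid it makes activates Akt, and Akt relieves the block that the tuberous sclerosis proteins place on mTOR. In fat cells the pathway drives glucose uptake and lipid storage and restrains lipolysis, and its activity is low in the fasted state.

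Of the 10 genes, Mtor was higher and Pik3ca was lower in the Flag-IP libraries than in IgG-IP, and the other 8 did not pass the test. These 2 transcripts differ in base composition, as the first 120 coding bases of each show, with G and C in capitals. The sequences are those of the GENCODE M21 transcripts Pik3ca-201 (GRCm38, chromosome 3, plus strand) and Mtor-202 (chromosome 4, plus strand).
Pik3ca: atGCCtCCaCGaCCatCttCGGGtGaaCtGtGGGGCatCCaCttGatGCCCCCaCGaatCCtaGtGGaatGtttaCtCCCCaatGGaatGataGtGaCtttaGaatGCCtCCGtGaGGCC
Mtor: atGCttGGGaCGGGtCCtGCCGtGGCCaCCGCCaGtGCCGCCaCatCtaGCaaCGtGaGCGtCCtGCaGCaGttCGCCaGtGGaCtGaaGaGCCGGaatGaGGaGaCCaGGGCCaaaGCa
In these stretches 63 bases of Pik3ca and 76 bases of Mtor are G or C. Over the whole coding sequence the GC content is 44.5% in Pik3ca and 54.8% in Mtor, and over the transcript with its untranslated ends it is 41.2% and 54.2%, in the same order. The start of a coding sequence does not always follow the rest of the transcript. In Tsc2 the first 120 coding bases hold 46.7% G and C, against 54.7% over its transcript.

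Adenosine methylation in mRNA commonly falls in the five-base context GGACT. The transcript strand of each gene was searched for it, and a match says nothing of whether the site is methylated. The first match in the coding sequence is shown for both genes that passed and for the Akt pair, with the motif in capitals.
Pik3ca: tactcccatacaGGACTgagtaacagact
Mtor: cagttcgccagtGGACTgaagagccggaa
Akt1: actgtggcagatGGACTcaagaggcagga
Akt2: tgggcgagcagtGGACTggtgggggctgg
All 10 transcripts hold GGACT, as do 92.6% of the 14920 tested protein-coding transcripts, so its presence sets none of them apart. Its density was 1.57 per kilobase in Pik3ca (14 matches) and 1.52 per kilobase in Mtor (13 matches), and ran from 1.10 in Akt2 to 2.23 in Akt1 over the 10. Across the 10 genes, which share the same 3 libraries, that density and the log2 fold change had a Spearman's rho of 0.05. It was 0.26 over 69 other genes of the pathway and 0.17 over 9084 protein-coding genes whose mean count was 20 or more.

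The libraries held between 74176962 and 98227791 counts, but 28 genes took 97.0% to 97.6% of them, and the median tested gene had 24 to 26 counts. The 10 genes together received 956 and 1065 counts in the Flag-IP pair and 1029 in IgG-IP. Intervals given here are 95% and cover counting error only. Of the white adipocyte markers, 8 of 8 had counts in every library, among them Lpl with 3108 and 1996 in Flag-IP and 2666 in IgG-IP. So did the brown adipocyte markers, with Ucp1 at 4 and 4 in Flag-IP and 2 in IgG-IP. The presence of counts is therefore no check of the tissue. The white adipocyte list went both ways: Plin1, a lipid droplet coat protein, was higher in Flag-IP, the fatty acid transporter gene Cd36 was lower, and the other 6 did not pass. Its median log2 ratio was 0.60 for Flag-IP 1 and -0.17 for Flag-IP 2, and its summed normalized counts were 3755 and 2365 in Flag-IP and 2979 in IgG-IP. Most of these sums was Lpl alone, with 3347 and 1977 in Flag-IP and 2511 in IgG-IP. Adipoq, the fat cell hormone adiponectin, was weakly counted at 18 and 14 in Flag-IP and 3 in IgG-IP. Of 4 skeletal muscle markers 3 were tested and 2 were higher in Flag-IP, with summed normalized counts of 122 and 70.3 in Flag-IP and 25.4 in IgG-IP. Acta1 of that list was at 0 in IgG-IP, with 4 counts in each Flag-IP library. The part of muscle RNA in the values below was not tested. In such bulk material fewer cells of a type and less RNA per cell cannot be told apart. Fto itself had 248 and 288 normalized counts in Flag-IP and 283 in IgG-IP. As every mouse carried the transgene, this value does not check the labels.

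The receptors were among the better counted members. Insr, the insulin receptor (GRCm38, chromosome 8, 3122061 to 3279617), had 133 and 128 counts in Flag-IP and 163 in IgG-IP. Scaled to effective library size, these are 143 and 127 normalized counts in Flag-IP and 154 in IgG-IP, so both Flag-IP libraries lay slightly below. This gave a log2 fold change of -0.19 ± 0.25 (SE, 2 Flag-IP libraries against 1) and an edgeR adjusted p = 0.702. Igf1r, the receptor for insulin-like growth factor (chromosome 7, 67952827 to 68233668), had 213 and 273 counts in Flag-IP and 211 in IgG-IP. Normalized counts were 229 and 270 in Flag-IP and 199 in IgG-IP, with both Flag-IP libraries above. Its log2 fold change of 0.33 ± 0.23 (SE) did not pass, with an edgeR adjusted p = 0.397. The ratio to IgG-IP was 1.15 (0.950 to 1.40) in Flag-IP 1 and 1.36 (1.13 to 1.64) in Flag-IP 2.

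The adaptors that carry the signal from the receptors were counted less often. Irs1 (chromosome 1, 82233101 to 82291416) had 43 and 57 counts in Flag-IP and 50 in IgG-IP. After scaling, the IgG-IP library lay between the Flag-IP libraries, at 46.3 and 56.4 normalized counts in Flag-IP and 47.1 in IgG-IP. The log2 fold change was 0.13 ± 0.37 (SE). Irs2 (chromosome 8, 10984681 to 11008458), the adaptor prominent in liver and pancreatic islets, had 16 and 19 counts in Flag-IP and 14 in IgG-IP. Both Flag-IP libraries lay above, at a log2 fold change of 0.45 ± 0.67 (SE). At this depth the ratio of Flag-IP 1 to IgG-IP could be anywhere from 0.598 to 2.89, so it could not be told apart from 1. The noncoding gene 9530052E02Rik, which overlaps Irs2 by 609 bases on the opposite strand, had 26 and 40 counts in Flag-IP and 35 in IgG-IP. Because the strand setting of the counting is not given in the sources used here, reads of the 2 genes cannot be told apart there.

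Phosphoinositide 3-kinase is a dimer of a catalytic and a regulatory subunit. Pik3ca, the alpha catalytic subunit (chromosome 3, 32397671 to 32468486), had 27 and 41 counts in Flag-IP and 76 in IgG-IP, or 29.1 and 40.6 normalized counts in Flag-IP and 71.6 in IgG-IP. Both Flag-IP libraries were well below the IgG-IP library. Its log2 fold change of -1.03 ± 0.36 (SE) passed, at an edgeR adjusted p = 0.0418. Library by library, the ratio to IgG-IP was 0.406 (0.252 to 0.638) in Flag-IP 1 and 0.567 (0.378 to 0.840) in Flag-IP 2. Pik3r1, which encodes the main regulatory subunits (chromosome 13, 101680563 to 101768217), had 292 and 244 counts in Flag-IP and 336 in IgG-IP. On the normalized scale these are 314 and 242 in Flag-IP and 317 in IgG-IP. Flag-IP 1 lay next to IgG-IP and Flag-IP 2 below it. A log2 fold change of -0.19 ± 0.22 (SE) did not pass, at an edgeR adjusted p = 0.650.

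Akt1 and Akt2 encode closely related kinases, and Akt2 is the form most tied to glucose uptake in fat and muscle. Akt1 (chromosome 12, 112653821 to 112674884) had 71 and 80 counts in Flag-IP and 49 in IgG-IP. Both Flag-IP libraries were above, at 76.5 and 79.2 normalized counts in Flag-IP and 46.2 in IgG-IP. The counting interval of the ratio to IgG-IP lay above 1 in each library, 1.14 to 2.43 in Flag-IP 1 and 1.19 to 2.50 in Flag-IP 2. Its log2 fold change of 0.75 ± 0.35 (SE) nevertheless missed the threshold over all genes, with an edgeR adjusted p = 0.146. Akt2 (chromosome 7, 27591552 to 27640826) had 47 and 60 counts in Flag-IP and 52 in IgG-IP, a log2 fold change of 0.17 ± 0.36 (SE). Whether the fold changes of Akt1 and Akt2 differ was not tested.

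At the growth-control end of the pathway both genes had larger Flag-IP values. Tsc2, which encodes tuberin and holds mTOR in check (chromosome 17, 24595816 to 24632630), had 30 and 38 counts in Flag-IP and 16 in IgG-IP. Its log2 fold change of 1.21 ± 0.53 (SE) had the largest size of the 10, but with so few counts the edgeR adjusted p was 0.1196. Pkd1, which overlaps Tsc2 by 693 bases on the opposite strand, had 37 and 58 counts in Flag-IP and 33 in IgG-IP, so the single value of Tsc2 is uncertain. Mtor, the kinase at the core of both mTOR complexes (chromosome 4, 148448611 to 148557683), had 84 and 125 counts in Flag-IP and 62 in IgG-IP. Normalized counts were 90.5 and 124 in Flag-IP and 58.4 in IgG-IP, so both Flag-IP libraries lay above, although the counting intervals of Flag-IP 1 (from 72.2) and IgG-IP (up to 74.9) overlapped. Its log2 fold change of 0.88 ± 0.31 (SE) passed, at an edgeR adjusted p = 0.0448. The ratio to IgG-IP was 1.55 (1.10 to 2.19) in Flag-IP 1 and 2.12 (1.55 to 2.92) in Flag-IP 2. Angptl7, inside the span of Mtor on the opposite strand, had 2 and 9 counts in Flag-IP and 8 in IgG-IP.

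**Figure D1:**
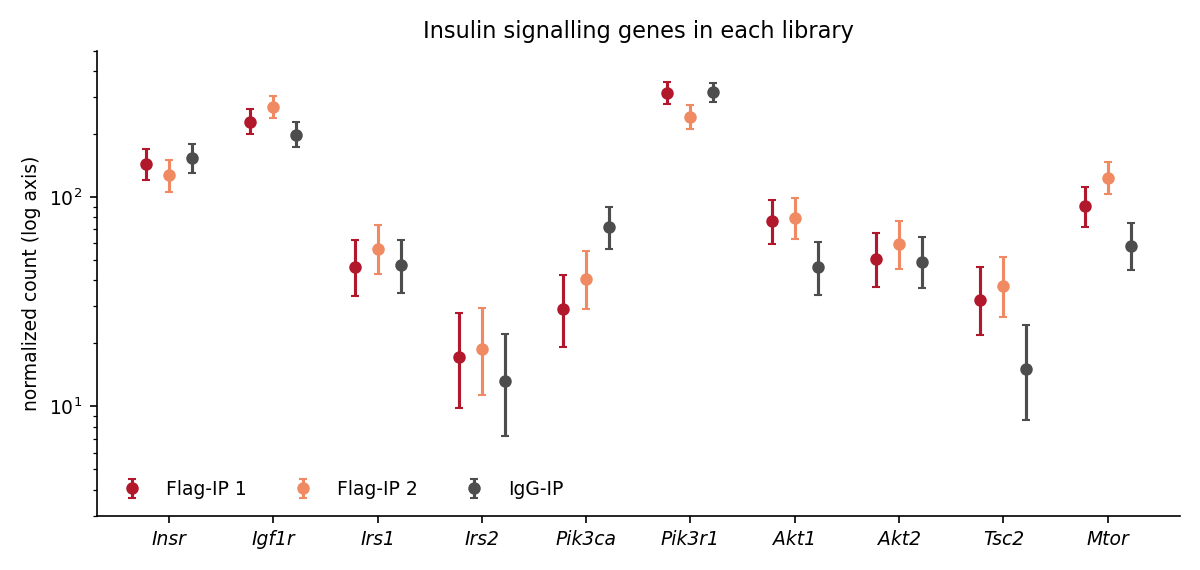
Normalized counts (log axis) of the 10 insulin signalling genes by library, with bars for the exact 95% Poisson interval of each count. Pik3ca lies at 29.1 and 40.6 in Flag-IP and 71.6 in IgG-IP, and Mtor at 90.5 and 124 in Flag-IP and 58.4 in IgG-IP.

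The 2 genes past the threshold are 20% of the 10, against 11.3% of all 17587 genes tested and 17.1% of the 10249 genes whose mean count was 20 or more. A single gene passed in each direction, while 5.58% of all genes were higher and 5.77% lower, or 7.7% higher and 9.4% lower among those with the larger mean count. With a mean count of 20 or more required of the 10 as well, 2 of 9 passed, or 22.2%. Counts this small say little about the 10 as a group. Both Flag-IP libraries lay above the IgG-IP library for 6 of the 10 and below it for 3, while 40.5% and 39% of all tested genes did so. The median log2 fold change of the 10 was 0.25, against 0.03 over all genes tested, and 7 of the 10 fitted values were above 0, against 51.3% over the table. Taken singly, Flag-IP 1 gave a median of 0.13 and Flag-IP 2 one of 0.35. Scaling to total counts gave -0.26, since it shifts the whole table by a median of -0.52 (log2). Both calls sat close to the threshold. The Pik3ca call was lost with upper-quartile scaling (edgeR adjusted p = 0.0639) and the Mtor call with total counts (edgeR adjusted p = 0.514). Both were lost with no filter on low counts and with a likelihood ratio test that assumed a common dispersion.

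**Figure D2:**
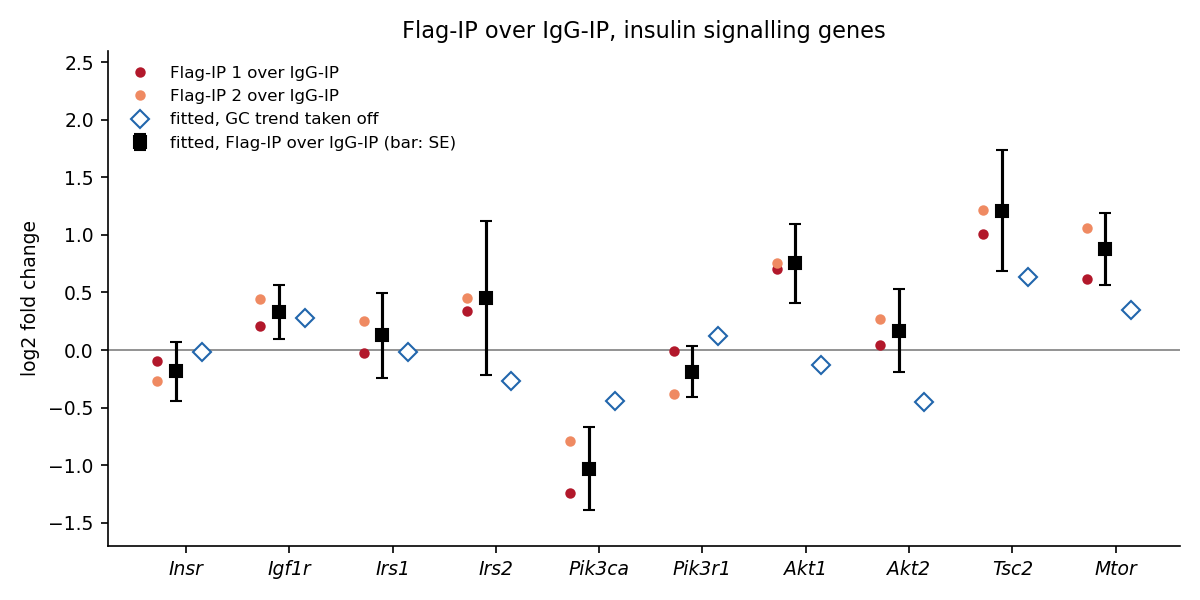
Log2 fold change of Flag-IP over IgG-IP for the 10 genes, as the fitted value with its SE (squares), the ratio of each Flag-IP library to IgG-IP (circles), and the fitted value after a trend on transcript GC content was taken off (diamonds). Pik3ca is at -1.03 fitted and -0.44 without the trend, and Mtor at 0.88 fitted and 0.34 without the trend.

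Per kilobase of transcript the 10 genes spanned 16.2-fold and 11.4-fold in Flag-IP and 21.3-fold in IgG-IP. Pik3r1 stood at the top of each library, with 44.2 and 34.0 normalized counts per kilobase in Flag-IP and 44.5 in IgG-IP. Irs2 stood at the bottom, with 2.73 and 2.98 per kilobase in Flag-IP and 2.09 in IgG-IP. Igf1r had 20.1 and 23.7 per kilobase in Flag-IP and 17.4 in IgG-IP, and Insr 15.3 and 13.5 in Flag-IP and 16.4 in IgG-IP. Akt1 ranked 2 in both Flag-IP libraries, with 28.4 and 29.5 per kilobase, and below Igf1r in IgG-IP with 17.2. Mtor ranked 6 and 4 in Flag-IP and 7 in IgG-IP, and Pik3ca ranked 9 in both Flag-IP libraries and 6 in IgG-IP. Most neighbours in these orders could not be separated: the exact Poisson intervals overlapped in 7 and 7 of 9 neighbouring pairs in Flag-IP and in 8 of 9 in IgG-IP. Each level divides by the length of 1 annotated transcript, and it is not known which part of a gene its reads came from.

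The fold changes of the 10 genes followed the base composition of their transcripts. The 3 genes with a transcript GC content under 48.6%, the median of protein-coding genes whose mean count was 20 or more, were Pik3ca (41.2%), Pik3r1 (44.9%) and Insr (46.8%), and all 3 had a log2 fold change below 0. The 7 above that median all had a log2 fold change above 0. Among all 9084 such protein-coding genes, 75.7% of those below the median GC had a negative fold change and 73.6% of those above it a positive one, so the 10 genes followed a pattern present across the table. Spearman's rho between GC content and log2 fold change was 0.76 over the 10 genes (Pearson's r 0.83) and 0.64 over the 9084. These are descriptions over genes that share libraries. In the group of genes by GC that holds Pik3ca, the second lowest of 10, the median log2 fold change was -0.58, and Pik3ca lay 0.45 below it. In the second highest, which holds Mtor, Tsc2, Irs2 and Akt2, it was 0.56, and Mtor lay 0.32 above it, Tsc2 0.65 above, Irs2 0.11 below and Akt2 0.39 below. Akt1, at 59.7% GC, had 0.75 beside a median of 0.76 for its group. When a lowess trend on GC fitted over all tested genes was taken off, Pik3ca was at -0.44 (edgeR adjusted p = 0.659) and Mtor at 0.34 (edgeR adjusted p = 0.705), and 0 of the 10 genes passed by edgeR, with 0 at an unadjusted p under 0.05.

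**Figure D3:**
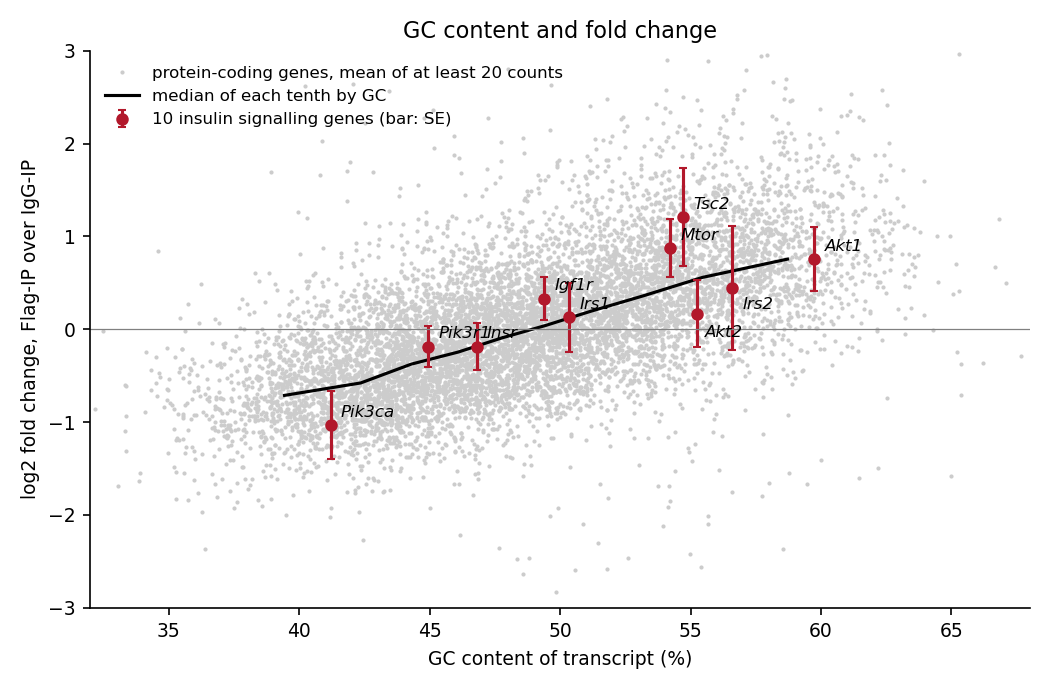
Log2 fold change of Flag-IP over IgG-IP against the GC content of the transcript (%), for protein-coding genes whose mean count was 20 or more (grey, points beyond the axes are not drawn), with the median of each of 10 equal groups by GC (line) and the 10 insulin signalling genes with their SE (red). The line passes from -0.71 in the lowest group to 0.76 in the highest, and Pik3ca lies below it at -1.03.

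The rest of the pathway was read from 7 lists by role, holding 77 further genes of which 69 passed the filter on low counts. Of those, 6 were higher in Flag-IP, 7 were lower and 56 did not pass, which is 18.8% past the threshold in either direction against 11.3% of all genes tested. All 13 were among the 50 list genes whose mean count was 20 or more, or 26% of those, against 17.1% of all genes with such a mean. Their median log2 fold change was 0.16, with 0.26 from Flag-IP 1 alone and 0.14 from Flag-IP 2 alone.

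Upstream of the receptors, the list of ligands, other receptors and binding proteins had 0 of 8 tested genes past the threshold by edgeR. DESeq2 gave an adjusted p to 9 of the 69 genes over all 7 lists and called 0 of those. It gave none to Igf2r or Igfbp4 of this list, so it could not call them. Igf2r, a scavenger receptor for insulin-like growth factor, had 87 and 85 counts in Flag-IP and 56 in IgG-IP and was the 1 gene of this list with an unadjusted p under 0.05. With a filter at a mean of at least 50 counts it did pass (log2 fold change 0.84, edgeR adjusted p = 0.0405), but under no other edgeR setting. Igfbp4, a binding protein for the growth factors, had 14 and 35 counts in Flag-IP and 12 in IgG-IP. Among 11 tested adaptors and inhibitors of the receptors, 1 was higher and 1 was lower. Sh2b2, an adaptor that binds the activated insulin receptor, had 37 and 30 counts in Flag-IP and 12 in IgG-IP (log2 fold change 1.61 ± 0.56, SE; edgeR adjusted p = 0.0411). Grb14, an inhibitor of the receptor kinase, had 54 and 67 counts in Flag-IP and 123 in IgG-IP (log2 fold change -0.89 ± 0.30, SE; edgeR adjusted p = 0.0314).

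Around phosphoinositide 3-kinase, 1 of 9 genes was higher and 2 were lower. Pik3cd, the catalytic subunit typical of leukocytes, had 49 and 100 counts in Flag-IP and 36 in IgG-IP, so Flag-IP 2 had the larger share of the difference (log2 ratios of 0.61 in Flag-IP 1 and 1.49 in Flag-IP 2). Lymphocyte markers were also most counted in Flag-IP 2: Cd3e had 8 and 18 counts in Flag-IP and 6 in IgG-IP, and Cd79a had 4 and 17 in Flag-IP and 4 in IgG-IP. Neither passed the test. Hba-a1, of the same list, had 5 and 4 counts in Flag-IP and 0 in IgG-IP. The blood cell markers found in the table summed to 18.3 and 38.6 normalized counts in Flag-IP and 9.42 in IgG-IP. The macrophage markers found in the table summed to 25.8 and 24.8 normalized counts in Flag-IP and 25.4 in IgG-IP. Most of this was Csf1r, with 20 and 19 counts in Flag-IP and 21 in IgG-IP. The others had too few counts to be tested and went opposite ways. Cd68 had 4 and 6 counts in Flag-IP and 2 in IgG-IP, and Cd14 had 0 and 0 in Flag-IP and 4 in IgG-IP. The part of blood cells or macrophages in the value of Pik3cd was not tested. Pik3c2a, a class II lipid kinase, had 39 and 62 counts in Flag-IP and 111 in IgG-IP (log2 fold change -1.01 ± 0.31, SE; edgeR adjusted p = 0.0187). Its transcript GC content of 39.0% lies near the 41.2% of Pik3ca.

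Of 10 tested genes of Akt kinases, substrates and phosphatases, 1 was lower and the other 9 did not pass. Gsk3b, a kinase that Akt inhibits, had 135 and 80 counts in Flag-IP and 179 in IgG-IP and did not pass. Among 13 genes of the mTOR complexes and their controls 2 were higher. Prr5, a partner of mTOR in its second complex, had 50 and 68 counts in Flag-IP and 19 in IgG-IP (log2 fold change 1.75 ± 0.43, SE; edgeR adjusted p = 0.00175). Tfeb, a transcription factor of lysosomal genes that mTOR keeps out of the nucleus, had 72 and 61 counts in Flag-IP and 34 in IgG-IP. Both mRNAs are rich in GC, at 61.1% (Prr5) and 63.2% (Tfeb).

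In the Ras and MAP kinase branch 2 of 8 tested genes were lower and the other 6 did not pass. Braf, a kinase that Ras activates, had 75 and 65 counts in Flag-IP and 136 in IgG-IP (log2 fold change -0.82 ± 0.29, SE; edgeR adjusted p = 0.0395). The metabolic outputs in fat cells had 2 higher and 1 lower gene among 10. Hk2, which traps glucose as glucose phosphate, had 60 and 64 counts in Flag-IP and 24 in IgG-IP (log2 fold change 1.496 ± 0.41, SE; edgeR adjusted p = 0.00611). Gys1, the glycogen synthase of muscle and fat, had 39 and 30 counts in Flag-IP and 12 in IgG-IP. Both enzymes are also abundant in skeletal muscle, whose markers Ckm (23 and 19 counts in Flag-IP and 4 in IgG-IP) and Tnnt3 (39 and 26 in Flag-IP and 9 in IgG-IP) were higher too, and the part of muscle RNA in these values was not tested. Pde3b, through which insulin restrains lipolysis, was lower, with 72 and 74 counts in Flag-IP and 160 in IgG-IP (log2 fold change -0.999 ± 0.27, SE; edgeR adjusted p = 0.00622).

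**Figure D4:**
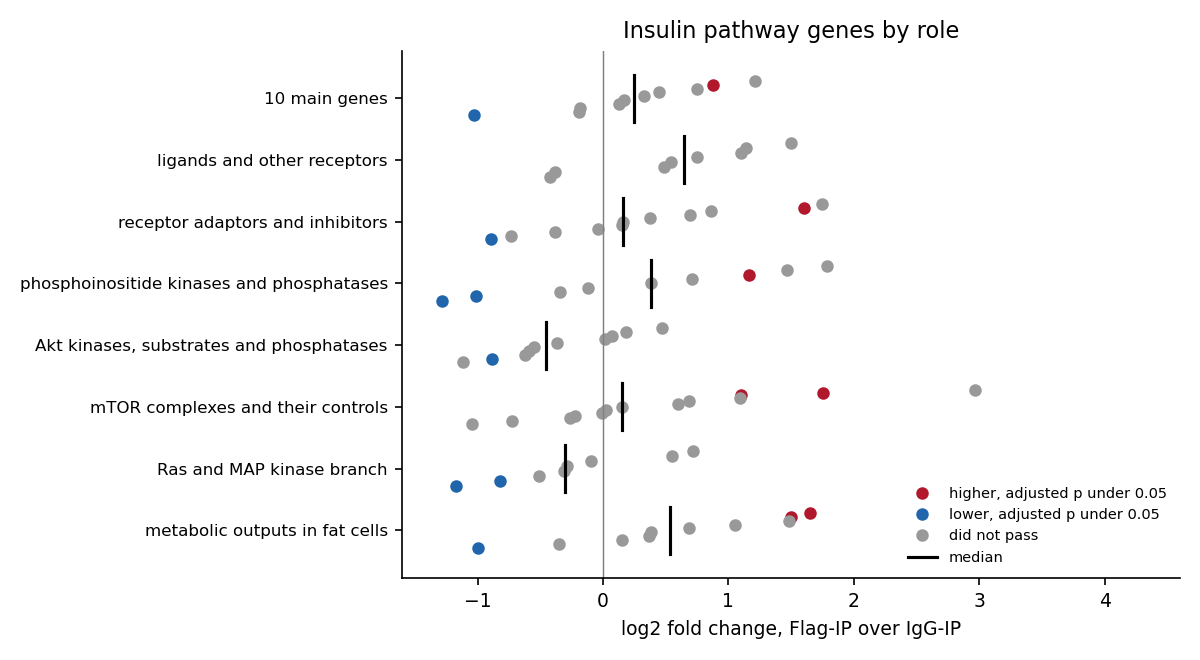
Log2 fold change of Flag-IP over IgG-IP for the 10 insulin signalling genes and the tested genes of 7 other pathway lists, 1 point per gene, coloured by the edgeR call, with each list's median as a line. Genes past the threshold in both directions are present among the adaptors, the phosphoinositide enzymes and the metabolic outputs.

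GC content divided the wider pathway in the same way. Of the 23 tested genes below the 48.6% median 19 had a negative fold change, and of the 46 above it 36 had a positive one. With the GC trend over all tested genes taken off, 2 of the 13 genes past the threshold kept their call, among them Grb14 at -1.02 (edgeR adjusted p = 0.0201). Its GC content of 50.1% is above the median, and each Flag-IP library had lower counts of it than IgG-IP.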

How the data were processed

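The deposited table holds whole-number counts per Ensembl gene, not normalized by the authors. Per the submitters' processing notes, the tools include CASAVA 1.7 and Bowtie 0.12.2 and the build is mm8, and the sources used here state no counting program, annotation or strand setting. Columns were paired with libraries through the sample number in each description. A deposited list of lipid genes holds none of these genes and was not used. Positions, transcripts and GC content are those of GENCODE M21 (GRCm38), found by Ensembl identifier for 37693 of 39179 genes. The transcript used is the longest protein-coding one of a gene, or otherwise its longest.

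Genes passing filterByExpr (minimum count 10) were scaled by TMM, with factors of 0.840 and 0.936 (Flag-IP) and 1.27 (IgG-IP). Normalized counts are counts over effective library size, times the mean effective size. edgeR's quasi-likelihood F-test (edgeR 4.0.16, R 4.3.3) was adjusted over all tested genes by Benjamini-Hochberg, with a threshold of 0.05. Its 1 residual degree of freedom comes from the Flag-IP pair. Prior degrees of freedom were infinite for all genes, so p-values and SEs rest on a spread pooled over genes. IgG-IP is assumed to have that spread too. The common dispersion over all genes was 0.0359, a summary that does not by itself set these SEs. A likelihood ratio test with a common dispersion gave larger adjusted p-values, 0.0768 for Pik3ca and 0.135 for Mtor. The SE is the log2 fold change over the square root of F. Single-library log2 ratios use a prior count of 2, and their linear intervals are exact binomial (Clopper-Pearson). The GC trend was a lowess with span 0.3, fitted to the edgeR log2 fold changes of the main setting. The procedure was tested on simulated counts. Alternatives were other scalings, filters and tests (DESeq2 1.42.0 among them), that GC trend, and leaving out a Flag-IP library. A permutation over 3 libraries cannot give a one-sided p under 0.333, so none is reported.

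The 10 genes and all lists were chosen with earlier results of these data known. Also named are Fto, every list gene past the threshold and, from each list, the 2 tested genes of largest absolute log2 fold change with a mean count of 20 or more. Markers and overlapping genes are named for values beside a result. Some genes that the rule takes are left unnamed here.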

Additional observations from a re-analysis of the deposited data

How the results depend on the processing

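The direction of Insr, Pik3ca, Tsc2 and Mtor held under every setting that tested them, and 1 IgG-IP library and few counts per gene limit all values. With total counts in place of TMM, 342 genes were higher and 3008 lower over the whole table (981 and 1015 with TMM), 0 of the 10 genes were higher and 2 lower (Pik3r1 joined at an edgeR adjusted p = 0.0259), 1 and 15 of the other pathway genes, and the median of the 10 was -0.26. Fold changes then turned negative for Igf1r (-0.18), Irs1 (-0.38), Irs2 (-0.064) and Akt2 (-0.34). With the GC trend over all tested genes taken off, 389 genes were higher and 351 lower, 0 and 0 of the 10, 0 and 3 of the other pathway genes, and the median of the 10 was -0.016. The sign then turned for Irs1 (-0.017), Irs2 (-0.27), Pik3r1 (0.13), Akt1 (-0.13) and Akt2 (-0.45). A trend fitted over protein-coding genes, chosen after seeing the data, gave 400 and 310 genes, 0 and 0 of the 10, 0 and 3 of the others and a median of 0.0033, with Irs2 at -0.18, Pik3r1 at 0.14, Akt1 at -0.045 and Akt2 at -0.37. DESeq2 called 131 genes higher and 145 lower but gave an adjusted p for only 3 of the 10 genes and 9 of the others, of which 0 passed in either direction. Its unadjusted p was 0.141 for Pik3ca and 0.119 for Mtor. With no filter 0 of the 10 were higher and 0 lower, and 2 of the others were higher. A likelihood ratio test with a common dispersion gave 0 and 0 of the 10 and 2 lower among the others. Upper-quartile scaling left 0 of the 10 lower, and so did a mean of at least 50 counts, a filter that Pik3ca does not pass. Leaving out 1 Flag-IP library left no residual degrees of freedom and hence no test; the median of the 10 then ranged from 0.13 to 0.35, Pik3ca from -1.24 to -0.79 and Mtor from 0.62 to 1.06. No paired analysis was run, because the labels do not state that any Flag-IP library shares an animal with the IgG-IP library.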
